A study of Mus musculus with 20 samples.

Results

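The genes described here encode the subunits of the glutamate and GABA receptors, measured in the prefrontal cortex of male mice after social stress. They were taken from the array's own gene names: a name had to start with Gria, Grid, Grik, Grin or Grm followed by a number, or to be one of the Gabr or Gabbr names. The rule matched 48 of 30210 gene names and 77 of 39429 probes. One of the matches, Grid2ip, encodes a protein that binds a delta receptor and is no subunit, which left 47 receptor genes with 76 probes. Each gene was read through its brightest probe, and no difference between stressed and control mice entered the choice.

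The mice were Swiss-Webster males, housed singly from 12 weeks of age and habituated for 22 days, and each stressed group had its own control group of unstressed siblings. Stress was the placing of a mouse into the cage of a group of unfamiliar males. The stressed groups were Stress-acute (24 hours after a single encounter), Stress-8 days, Stress-13 days and Stress-13 days + 5 days of rest, called recovery here, each against the control group of the same time point. Control mice lived in a separate room, so room and stress cannot be told apart. RNA came from a slice of the frontal pole, and equal amounts from 3 mice made a pool, which is the replicate here. A stress pool and the pool of its siblings were labelled with different dyes and hybridised together, 3 pairs of pools per time point and 12 in all, on 20 arrays. For pools 2 and 3 of each time point both an original array and one with the dyes exchanged (a dye swap) were analysed, and for pool 1 only the original array, its swap being not analysed here. The pool number went with the slide at all 4 time points: pool 1 was on slide 1, pool 2 on slides 2 and 3, and pool 3 on slides 4 and 5, which were scanned on a second day. Values are log2 ratios of stress over control within a pair, so 0 means equal RNA and -1 would mean that the stress pool held 1 part for 2 parts in controls. As these are pools of bulk tissue, fewer cells of a type and less RNA per cell cannot be told apart.

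Ionotropic glutamate receptors are ion channels of several subunits each. AMPA receptors carry most fast excitation, NMDA receptors admit calcium when glutamate and depolarisation coincide, kainate receptors act on both sides of the synapse, and delta receptors serve mainly as synaptic organisers. Metabotropic glutamate receptors and GABA-B receptors signal through G proteins, while GABA-A receptors are chloride channels that give fast inhibition at synapses and a steady inhibition outside them. In the cortex the composition of these receptors is known to shape plasticity and the balance of excitation and inhibition.

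Most receptor genes of the cortical slice gave signal well above background. The brightest probe was well above background, by the scanner software's own mark, in both dye channels of all 20 arrays for 40 of the 47 genes. These comprised all 4 AMPA, 2 delta, 5 kainate and 2 GABA-B genes, 5 of 7 NMDA, 7 of 8 metabotropic glutamate and 15 of 19 GABA-A genes, with the rho subunits counted as GABA-A. Gabrq, which encodes the theta subunit, and Grm6, known from retinal bipolar cells, were well above background on no array. Their own ratios are not given, though they are among the 47 genes of the counts and medians and among the dots of the plot by class. Gabra6, known from cerebellar granule cells, passed the mark on 1 array only. Gabrp and Gabrr3 reached it in a single channel of 12 arrays and in both channels of none, and Grin3b and Grin2d reached it in both channels of 8 and 18 arrays. No probe of the receptor genes was saturated.

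After stress the receptor genes stayed close to their controls. In a limma fit over 39429 probes, a gene was called when its Benjamini-Hochberg adjusted p was below 0.05 and its log2 ratio was beyond 0.5 on either side. After acute stress 0 of 47 genes were called, where 0.00254% of all probes were. Likewise 0 of 47 were called after 8 days (0% of all probes), 0 of 47 after 13 days (0.0228%), 0 of 47 in recovery (0%) and 0 of 47 in the mean of the 4 time points (0.0127%). At an unadjusted p under 0.05 acute stress gave 2 receptor genes (4.26%, against 4.94% of all probes), 8 days gave 2 (4.26% against 2.39%), 13 days gave 9 (19.1% against 7.18%) and recovery gave 2 (4.26% against 3.56%). The mean of the 4 time points gave 5 (10.6% against 7.48%), all of them lower in stress (4.66% of all probes were lower): Grin2c, Gabrd, Gabbr2, Grik5 and Gabra3. Among genes well above background in both channels of all arrays, the shares in this mean were near each other, at 12.5% of 40 receptor genes and 11.9% of 17146 genes. With the pool number as a block the mean of the 4 time points gave 8, and 0 of 47 were called. The share of all probes under that block is not given here, so the 8 cannot be set against it. Under the block Grin2c and Gabrd had adjusted p of 0.0165 and 0.0392 in limma, with log2 ratios well inside 0.5. How many of all probes had an adjusted p under 0.05 with that block is not given here. Both genes were lowest in pool 1 (means of -0.228 and -0.178), which was analysed without a dye swap. Without pool 1 and without the block their adjusted p were 0.39 and 0.397 in limma. Without the block the lowest adjusted p of any receptor gene was 0.949 for acute stress, 1 for 8 days, 0.483 for 13 days and 0.999 for recovery. For the mean of the 4 time points it was 0.319.

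Agreement among the 3 pools of a time point was below that of the whole array after acute stress and near it in the other groups. All 3 pools had the same sign for 7 receptor genes in the acute group (14.9%, against 28.4% of all probes), 8 in the 8-day group (17% against 18.6%), 14 in the 13-day group (29.8% against 26.5%) and 11 in recovery (23.4% against 21%). The intensities of stress and control pools did not overlap for 1, 0, 3 and 4 receptor genes in these groups, while 5.9%, 2.33%, 6.19% and 3.51% of all probes did not overlap. Of the 8 cases, 1 was Grm6 and 1 was Gabrq, both below background, and the others were Grin2c (acute stress and 13 days), Grik4 (13 days), Grin1, Grin2a and Grm5 (recovery).

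The intervals of the fit describe the spread of pools for the brightest probe of each gene. They do not cover differences between probes of a gene or the missing dye swap of pool 1. The 95% interval of the log2 ratio lay within 0.5 of 0 for 46 of 47 genes in the acute group, 47 in the 8-day group, 46 in the 13-day group and 47 in recovery. The exceptions were Gria1 after acute stress and Gabbr2 after 13 days, whose lower bounds were -0.61 and -0.56. The median log2 ratio over the 47 genes was -0.02 for acute stress, 0.00 for 8 days, -0.01 for 13 days and -0.02 for recovery, beside a median of 0.00 over all genes at each time point. The background correction draws ratios of dim genes toward 0, so a narrow interval says less there.

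**Figure D1:**
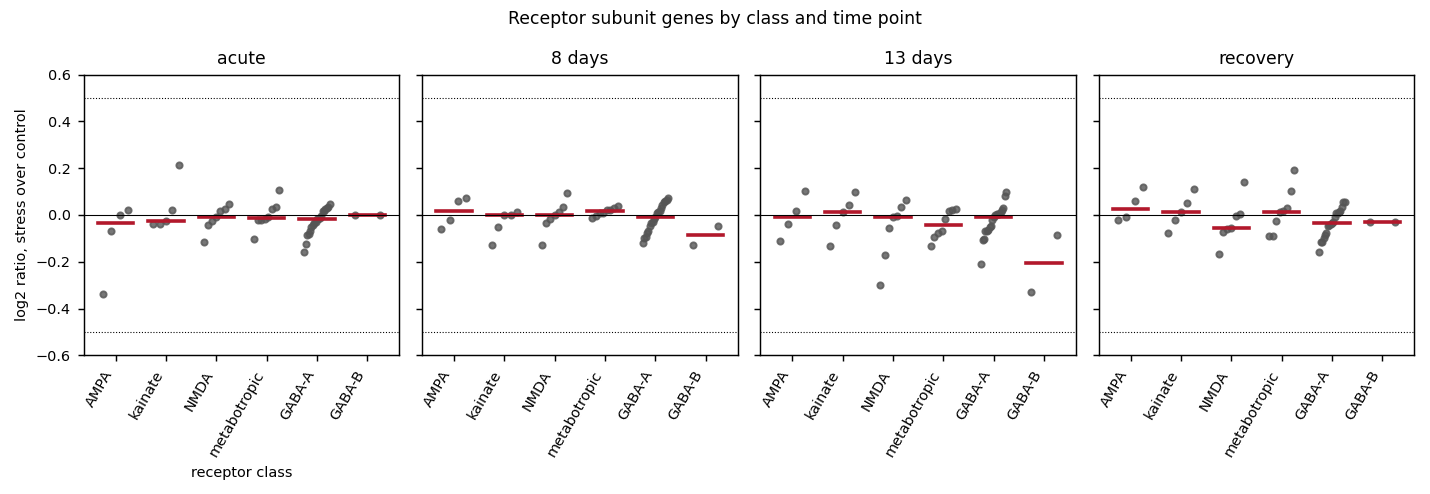
Stress over control as a log2 ratio (vertical axis, 3 pools per time point) for 45 receptor genes of 6 classes at the 4 time points. Each dot is 1 gene, dim genes included, the red bar is the class median, and the dotted lines mark 0.5 and -0.5, which no gene reached.

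AMPA receptor genes differed most at the first time point, through 1 gene. Gria1 encodes a pore subunit that is known to be added to synapses during potentiation. Its log2 intensities after acute stress were 10.37, 10.43 and 9.79 in stress pools 1 to 3, against 10.90, 10.69 and 10.01 in their control pools. The stress pool was the lower of each pair, while the ranges of stress and control overlapped because pool 3 was dimmer on both sides. The log2 ratios were -0.53, -0.26 and -0.22, with a mean of -0.34 (SE 0.127, n = 3), a fold of 0.792 and an adjusted p of 0.949 in limma.

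The lower Gria1 signal of acute stress was not seen in every pool later. Its log2 ratios were -0.33, 0.39 and -0.24 after 8 days, -0.48, 0.09 and 0.05 after 13 days, and -0.14, 0.06 and 0.06 in recovery. Pool 1 was negative at all 4 time points. Gria2, whose subunit limits the entry of calcium, had ratios from -0.22 to 0.49 over the 12 pools and a mean over the time points of 0.05 (SE 0.0605). Gria3 was higher in stress in all 3 pools after 8 days, at 0.19, 0.02 and 0.00, and after 13 days, at 0.21, 0.09 and 0.01, with means of 0.07 (adjusted p = 1 in limma) and 0.10 (adjusted p = 0.766). A second bright probe of Gria3 did not keep the same sign. It gave 0.067, 0.168 and -0.027 after 8 days, and 0.137, -0.148 and 0.004 after 13 days (mean -0.002). Gria4, named after its values were seen, ranged from -0.17 to 0.28 over the pools.

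Kainate receptor genes held the highest receptor ratio of acute stress. Grik3 encodes a pore-forming subunit of low glutamate affinity, and its log2 ratios after acute stress were 0.33, 0.09 and 0.22 in pools 1 to 3. Their mean of 0.21 (SE 0.0943, n = 3) had an adjusted p of 0.976 in limma. A further probe of Grik3 was not well above background in both channels on any array, so this value rests on 1 probe. Grik3 had a dye effect of 0.205. This is the log2 ratio of original minus swapped arrays, divided by 2 and averaged over pools 2 and 3 and the time points. Pool 1, which had the highest Grik3 ratio, holds the original dye order alone.

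Grik4, a high-affinity subunit that needs a pore-forming partner, had log2 intensities of 11.14, 11.28 and 11.20 in stress pools 1 to 3 after 13 days, against 11.36, 11.33 and 11.32 in control pools. The ranges of stress and control did not overlap. The log2 ratios of -0.22, -0.05 and -0.12 averaged -0.13 (SE 0.043, adjusted p = 0.524 in limma). Grik5, the other high-affinity subunit, was lower in stress in 11 of 12 pools, by little: its mean over the time points was -0.05 (SE 0.0226), and its adjusted p was 0.649 in limma. Grik2, a main kainate subunit of the forebrain, had ratios from -0.33 to 0.24 and a mean of -0.03 (SE 0.0394). Grik1, likewise named afterwards, ranged from -0.13 to 0.37.

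Of the delta receptor genes, Grid1 was among the 9 genes with an unadjusted p under 0.05 after 13 days of stress. Its log2 ratios were 0.30, -0.01 and 0.08 there, with a mean of 0.12 (SE 0.0538, adjusted p = 0.665 in limma), and pool 1 carried most of it. In recovery the log2 ratios of Grid1 were -0.15, -0.04 and -0.07, with a mean of -0.09 (SE 0.0538, adjusted p = 0.999). In the test for a difference among the 4 time points 1 of the 47 receptor genes had an unadjusted p under 0.05 (2.13%, against 2.72% of all probes), and 0 of 47 were called (0% of all probes).

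NMDA receptor genes had the lowest p-value after 13 days of stress. Grin2b encodes the subunit that gives NMDA receptors slow kinetics and predominates early in development. Its log2 intensities after 13 days were 10.92, 10.70 and 10.56 in stress pools 1 to 3, against 11.16, 11.23 and 10.68 in control pools. Every stress pool was below its own control, most clearly in pool 2, and the ranges overlapped. The log2 ratios were -0.24, -0.53 and -0.13, with a mean of -0.30 (SE 0.0874, n = 3) and an adjusted p of 0.483 in limma.

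Grin2b did not keep this difference elsewhere. Its mean log2 ratio was 0.02 after acute stress, 0.03 after 8 days and -0.07 in recovery, where pool 1 stood at -0.35 and pools 2 and 3 at 0.03 and 0.10. A difference among the time points had an adjusted p of 1 in limma. Its second probe, 1587 bases away in the genome and bright as well, gave 0.06, -0.12 and -0.05 after 13 days, with a mean of -0.04 (SE 0.0498). The low value was thus seen with 1 of its 2 probes.

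Grin2c was below control in 11 of 12 pools, as Grik5 was, and by more. Its subunit gives channels with weak magnesium block, and in the forebrain it is known from astrocytes and some interneurons. The log2 ratios of pools 1 to 3 were -0.18, -0.08 and -0.08 after acute stress, -0.27, -0.10 and -0.01 after 8 days, -0.29, -0.06 and -0.16 after 13 days, and -0.17, 0.00 and -0.00 in recovery. Stress and control intensities did not overlap after acute stress (11.33 to 11.38 in stress pools, against 11.43 to 11.51 in control pools) or after 13 days (11.16 to 11.38, against 11.43 to 11.54). The mean over the 4 time points was -0.12 (SE 0.0284, 95% interval -0.18 to -0.06), a fold of 0.922, with an adjusted p of 0.319 in limma. It was 0.0165 with the pool number as a block and 0.019 with slides as blocks. The slide fit used 20 arrays with a correlation of 0.0488 between arrays of a pool. Arrays of the same RNA thus counted nearly as separate replicates, and its mean of -0.095 holds more original arrays than swaps. Within slides its mean over the time points was -0.23, -0.14 and -0.19 on slides 1, 2 and 4, which hold the original arrays, and 0.02 and 0.06 on slides 3 and 5, which hold the dye swaps. Averaged over both dye orders, pools 2 and 3 had -0.06 each, while pool 1 rests on the original order alone. In the same mean 6 of 6 astrocyte markers were below control, with a median of -0.05 and 0 called, and their part in the Grin2c values was not tested.

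The remaining NMDA subunits gave smaller or mixed values. Grin1, the subunit every NMDA receptor needs, had log2 ratios of -0.30, -0.12 and -0.08 in recovery, with a mean of -0.17 (SE 0.0823, adjusted p = 0.999 in limma), and a mean over the time points of -0.01 (SE 0.0412). A second bright probe of Grin1 gave -0.643, -0.125 and 0.076 in recovery, above control in pool 3. Grin2a, which replaces Grin2b at many mature synapses, had 0.38, 0.03 and 0.01 in recovery, with a mean of 0.14 (SE 0.0805, adjusted p = 0.999). Its second probe gave -0.43, -0.10 and 0.11 in the same pools, and -0.33, -0.24 and -0.05 after 13 days (mean -0.21, SE 0.0799, adjusted p = 0.623). Grin3a, a glycine-binding subunit named after its values were seen, averaged -0.01 (SE 0.0243) over the time points, while its second bright probe averaged -0.12 (SE 0.0391, adjusted p = 0.484) and was lower in 11 of 12 pools.

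Metabotropic glutamate receptor genes included the highest ratio of recovery. Grm5, a receptor that couples to phospholipase C and is abundant in the cortex, had log2 intensities of 12.77, 12.55 and 12.51 in recovery stress pools, against 12.39, 12.43 and 12.43 in their controls, which did not overlap. The log2 ratios of 0.38, 0.12 and 0.07 had a mean of 0.19 (SE 0.0908, n = 3, adjusted p = 0.999 in limma). Of its other probes, 1 gave a mean of 0.08 and 1 a mean of -0.03 in recovery. At the other time points Grm5 had means of -0.02, -0.01 and -0.08.

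Grm7, a presynaptic autoreceptor, was lower in stress in all 3 pools after 13 days, at -0.07, -0.12 and -0.10, with a mean of -0.09 (SE 0.0422, adjusted p = 0.677 in limma). Its mean over the time points was -0.03. Grm2 and Grm3, which inhibit adenylyl cyclase, had means over the time points of -0.03 (SE 0.0314) and 0.04 (SE 0.0538). Grm3 was positive in pool 1 at every time point, at 0.21, 0.23, 0.24 and 0.42, and negative in pool 3 at every time point, at -0.04, -0.23, -0.13 and -0.16. Its dye effect, taken as for Grik3, was 0.196, and pool 1 holds the original dye order alone. Without pool 1 its mean over the time points was -0.073.

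GABA-A receptor genes, the largest class, had more members below control than above it in the means over pools, but not in every pool. Of 19, 6 were above 0 and 13 below after acute stress, 9 and 10 after 8 days, 8 and 11 after 13 days, and 7 and 12 in recovery, with 0 called at each and class medians of -0.02, -0.01, -0.01 and -0.03. Over all genes 50.3%, 49.2%, 49.2% and 49.4% were above 0 at these times. In pools 1 to 3 the share of GABA-A genes above 0 was 47.4%, 47.4% and 26.3% after acute stress. It was 47.4%, 73.7% and 10.5% after 8 days, 26.3%, 78.9% and 21.1% after 13 days, and 42.1%, 26.3% and 47.4% in recovery.

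Gabrd, whose delta subunit sits outside synapses and carries steady inhibition, was lower in stress in 10 of 12 pools. The log2 ratios were -0.16, 0.02 and -0.10 after acute stress, -0.11, -0.11 and -0.14 after 8 days, -0.20, 0.01 and -0.13 after 13 days, and -0.24, -0.07 and -0.04 in recovery. The 4 means lay between -0.12 and -0.08, and the test for a difference among them gave an adjusted p of 1 in limma. Their overall mean was -0.11 (SE 0.0259, 95% interval -0.16 to -0.05), with an adjusted p of 0.327 in limma, and of 0.0392 with the pool number as a block and 0.1 with slides as blocks. Within slides the mean was -0.18, -0.15 and -0.36 on the original arrays of slides 1, 2 and 4, and 0.07 and 0.16 on the dye swaps of slides 3 and 5. Over both dye orders pools 2 and 3 had -0.04 and -0.10.

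Gabra2 encodes an alpha subunit found at synapses onto the axon initial segment. It is the gene whose probes agreed best, and its 2 probes overlap. They share 29 bases at chr5:71352306-71352334 of mouse build mm9, on the minus strand, shown here in capitals to mark what both probes read: TCAGCTCACTTCAATCATTGGAAACTACC. After 13 days the brighter probe gave log2 ratios of -0.20, -0.26 and -0.16 and the other -0.20, -0.24 and -0.09. The means were -0.21 (SE 0.111, adjusted p = 0.756 in limma) and -0.18 (SE 0.107, adjusted p = 0.796). After acute stress all pools were negative too, at -0.22, -0.15 and -0.11, whereas in recovery they spread from -0.33 to 0.51. The SE of 0.111 includes this spread, because the fit shares a variance over the time points.

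Other GABA-A subunits had means close to 0. Over the 4 time points the mean log2 ratio was -0.05 (SE 0.028) for Gabrb2, a beta subunit common at cortical synapses. Gabra5, another subunit found mostly outside synapses, had 0.04 (SE 0.0275) and was positive in 9 of 12 pools. Gabra3 had -0.06, -0.08 and -0.34 in recovery, a mean of -0.16 (SE 0.0681, adjusted p = 0.999 in limma). Over the time points Gabra3 averaged -0.07 (SE 0.0341), against 0.12 (SE 0.049) by a second probe, well above background in both channels of 19 arrays. Gabrg3, one of the 9 genes after 13 days and chosen after its values were seen, had -0.17, -0.04 and -0.08 there, with a mean of -0.10 (SE 0.0463, adjusted p = 0.69), and its second bright probe gave -0.13 (SE 0.0408, adjusted p = 0.498).

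Gabre, for the epsilon subunit, changed side between time points by small amounts, with 0.14, 0.02 and 0.01 after 8 days and -0.05, -0.07 and -0.04 after 13 days. Gabrg1, read by a probe with 10 spots per array, had 0.10, 0.01 and 0.01 in recovery.

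GABA-B receptor genes, by their brightest probes, were both below control in all pools after 13 days. Gabbr2, the subunit that couples to the G protein, had log2 intensities of 10.13, 9.92 and 10.01 in stress pools 1 to 3, against 10.48, 10.44 and 10.12 in control pools. Stress was lower within each pair, and stress pool 1 was just brighter than control pool 3. The log2 ratios of -0.35, -0.52 and -0.11 had a mean of -0.33 (SE 0.107, n = 3), the lowest of any receptor gene at that time point, with an adjusted p of 0.527 in limma. Both further bright probes of Gabbr2 gave means of -0.01 (SE 0.0673), 344 bases away, and -0.09 (SE 0.0681), 54378 bases away. Gabbr1, the subunit that binds GABA, had -0.03, -0.09 and -0.14, with a mean of -0.08 (SE 0.0411, adjusted p = 0.716). Its other bright probes gave means of 0.17 (SE 0.0795, adjusted p = 0.699) and -0.02 (SE 0.0651) there, so the direction of Gabbr1 after 13 days differed between its probes.

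**Figure D2:**
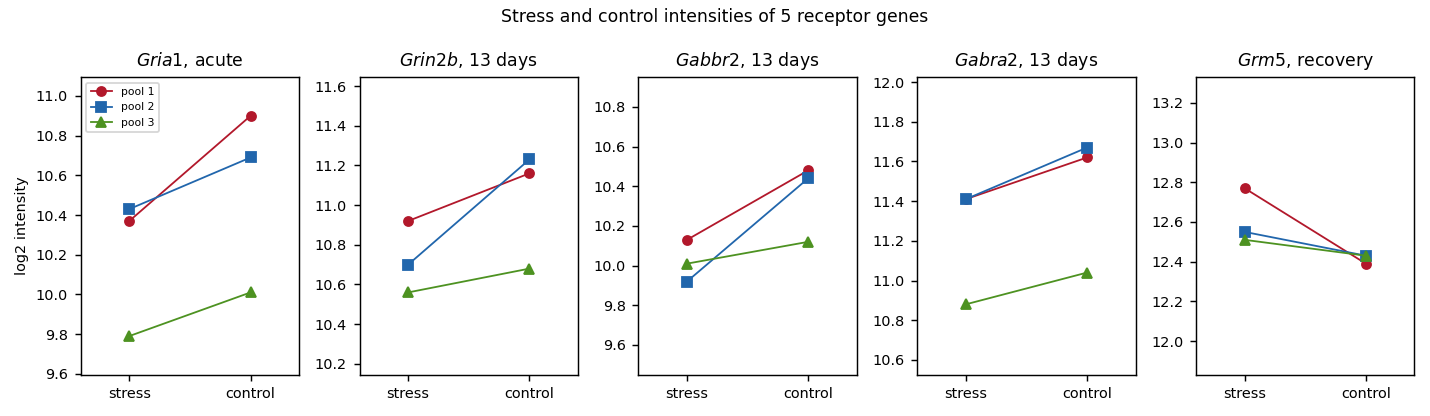
Log2 intensity of the brightest probe (vertical axis, different ranges of equal height) in stress and control pools for 5 gene and time point pairs, with a line joining the pools hybridised together. Stress lies below control in each pair for Gria1, Grin2b, Gabbr2 and Gabra2 and above it for Grm5.

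**Figure D3:**
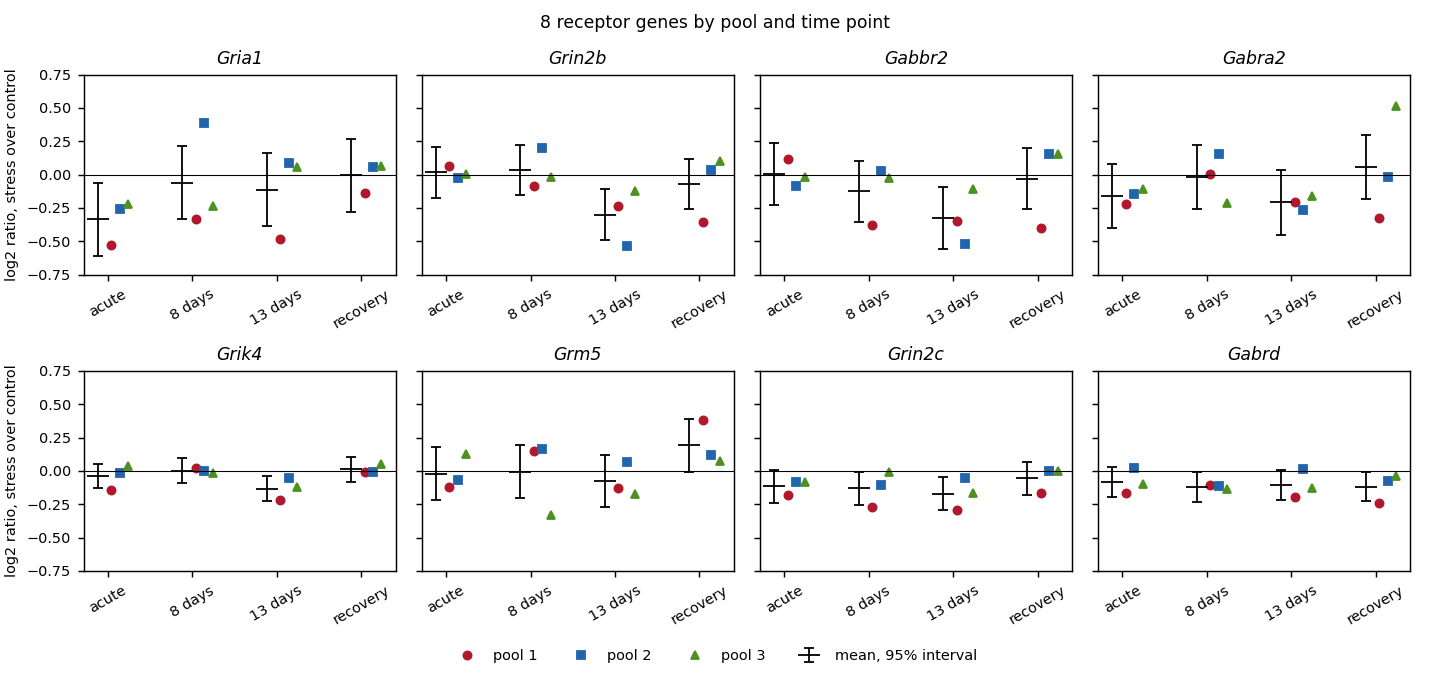
Stress over control as a log2 ratio (vertical axis) for 8 receptor genes at the 4 time points, with the 3 pools as symbols and the limma mean with its 95% interval beside them. Grin2c and Gabrd lie below 0 in 11 and 10 of 12 pools, while Grin2b and Gabbr2 are low in all pools only after 13 days.

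After 13 days the receptor genes had more small p-values than at the other times. The 9 genes with an unadjusted p under 0.05 were 2 above control, among them Grid1, where 3.05% of all probes were, and 7 below it, among them Grin2b, Gabbr2, Grik4, Grin2c, Grm7 and Gabrg3, where 4.13% of all probes were. Among the genes that were well above background in both channels of all arrays, 22.5% of 40 receptor genes and 10.8% of 17146 genes had p under 0.05. In these same sets all 3 pools had the same sign for 32.5% of the receptor genes and 32.7% of the genes. The count of 9 fell to 3 without pool 1 of that time point, 5 without pool 2 and 6 without pool 3. It was 0 when arrays were centred on the median in place of loess. The shares of all probes under these settings are not given here, so these counts cannot be set against them.

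**Figure D4:**
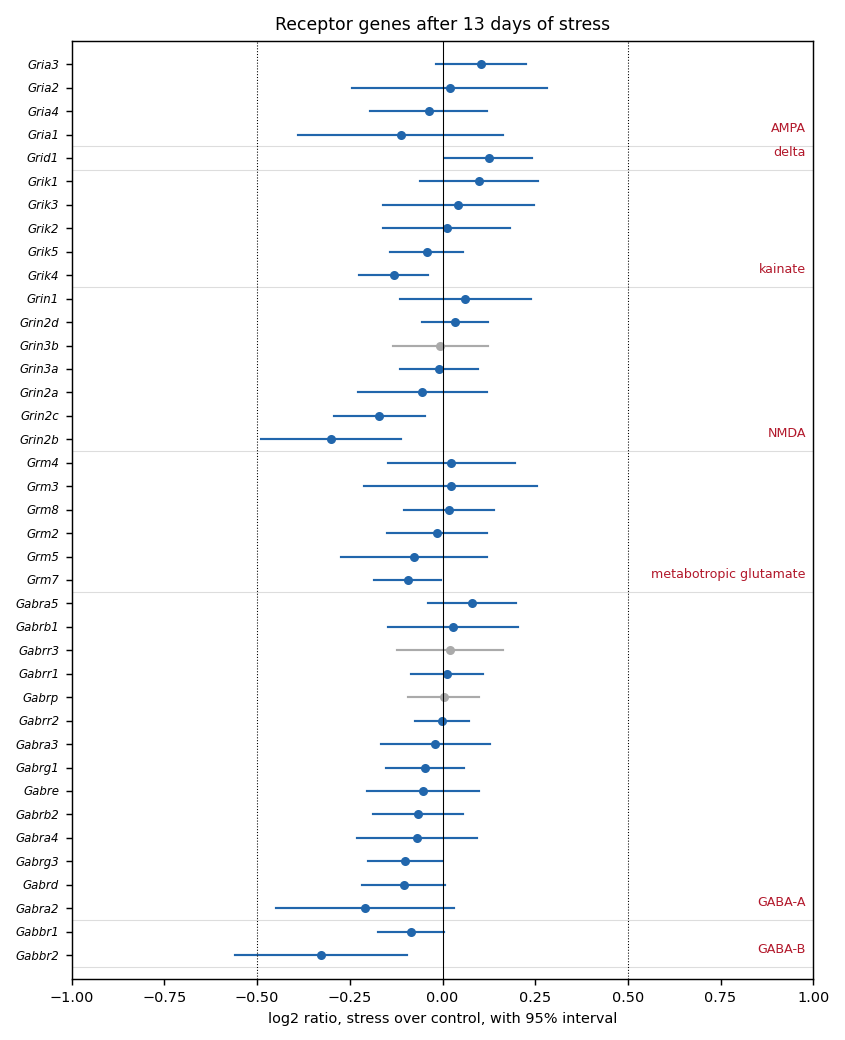
Log2 ratio of stress over control after 13 days (horizontal axis) with the 95% interval from limma, for the 39 receptor genes shown, grouped by class. The 3 grey genes, Gabrp, Gabrr3 and Grin3b, were not well above background in both channels on all 5 arrays of that time point. Gabra6, Gabrq and Grm6 are left out because they were above it on none of these, and the rest of the 47 are not reported here.

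How far a gene's value depends on its probe could be read from 22 receptor genes with more than 1 probe. Of their 29 other probes, 20 were well above background in both channels of all arrays. Over the 12 pools the log2 ratios of these 20 correlated with the brightest probe at a median r of 0.45, from -0.50 to 0.99, with 7 over 0.5 and 6 below 0. The points share arrays and dyes, so these r are descriptions. Gabra2 stood highest at 0.99. Among the genes with low receptor ratios after 13 days, the other probe of Grin2b had 0.39 and those of Gabbr2 0.47 and 0.74. Grin2a had -0.47, with probes 1535 bases apart that lay on the same side of 0 in 5 of 12 pools.

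**Figure D5:**
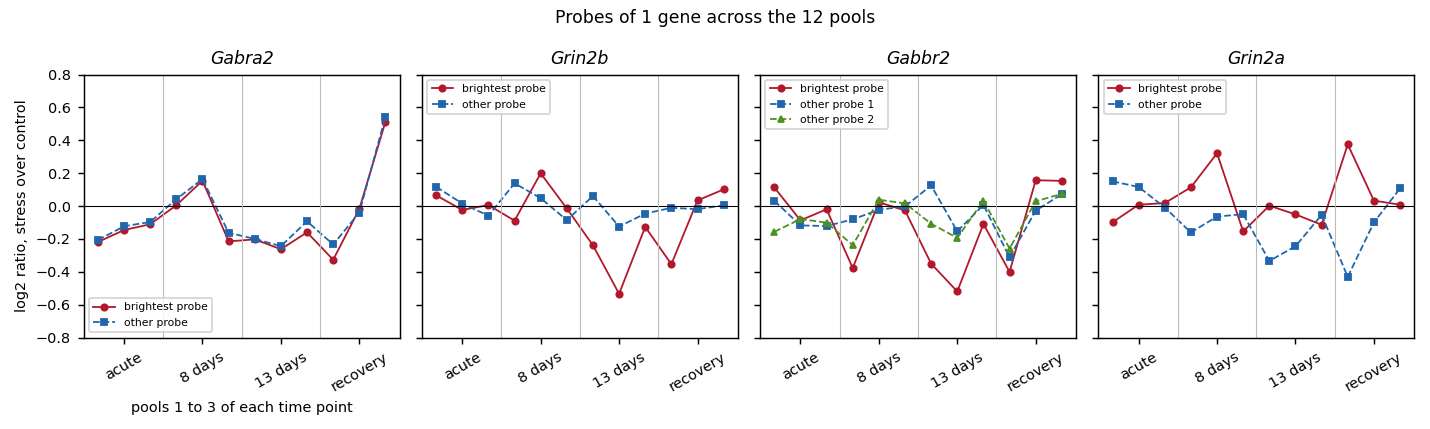
Stress over control as a log2 ratio (vertical axis) in the 12 pools (horizontal axis, pools 1 to 3 of each time point) for the probes of Gabra2, Grin2b, Gabbr2 and Grin2a. The lines of Gabra2 nearly coincide, while after 13 days only the brightest probe of Grin2b and Gabbr2 is low in all 3 pools.

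Partner genes of the receptors were measured on the same arrays: 18 auxiliary subunits, 21 synaptic scaffolds and 15 genes of transmitter synthesis and transport. Of these 54 genes 0 were called at any time point. After 13 days 2, 1 and 2 genes of the 3 lists had an unadjusted p under 0.05. Slc6a11, the GABA transporter of astrocytes, had the lowest: its log2 ratios were 0.40, 0.19 and 0.17 after 13 days, with a mean of 0.25 (SE 0.046, adjusted p = 0.18 in limma). Slc1a2, the main glutamate transporter of astrocytes, had -0.18, -0.43 and -0.32, with a mean of -0.31 (SE 0.0833, adjusted p = 0.437).

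Kctd8, which binds GABA-B receptors, had 0.21, 0.36 and 0.23 after acute stress (mean 0.27, SE 0.0706, adjusted p = 0.569 in limma). Kctd16, of the same family, had -0.28, -0.11 and -0.13 after 13 days (mean -0.17, SE 0.05, adjusted p = 0.483). Grip1, a scaffold of AMPA receptors, had a mean of -0.16 after 13 days (adjusted p = 0.741). The list medians after 13 days were -0.01 for auxiliary subunits, -0.01 for scaffolds and 0.01 for synthesis and transport, beside 0.00 over all genes.

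Markers of cell types moved in some of these samples. After 13 days all 5 red cell genes were called, with a median log2 ratio of 1.397 and mean log2 intensities of 13.66 to 14.18 in stress pools, against 12.36 to 12.85 in control pools. Beside the low receptor ratios of that time point, 5 of 6 astrocyte markers were below control (median -0.15, 0 called). Their mean intensities were 11.02 to 11.22 in stress pools and 11.19 to 11.38 in control pools. The lowest of these markers was Slc1a2, the same probe as given above as a partner gene. Slc6a11, which is not in the marker list, was above control after 13 days (mean 0.25). Of 7 olfactory bulb markers 6 were below control (median -0.11, 0 called, 8.01 to 8.11 in stress pools and 8.05 to 8.20 in control pools). After acute stress 6 of 6 oligodendrocyte markers were above control, with a median of 0.30, 1 of them at an adjusted p under 0.05, and intensities of 10.92 to 11.04 in stress pools against 10.70 to 10.78 in control pools. Neuron markers had list medians of 0.07, 0.01, -0.00 and 0.01 at the 4 time points. After acute stress 6 of 8 neuron markers were above control, the highest at 0.33, with 0 called and 2 at an unadjusted p under 0.05 in limma. Their acute pool medians were 0.10, 0.06 and 0.05, and their intensities 13.15 to 13.35 in stress pools and 13.11 to 13.27 in control pools. After 13 days the intensities of neuron markers were 13.05 to 13.33 in stress pools and 13.09 to 13.36 in control pools. The 6 striatum markers had a median of 0.02 after 13 days. Their part in the receptor values was not tested.

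Pool 1, analysed here without its dye swap, spread more than the others. The median size of the log2 ratio over the 47 receptor genes was 0.098 to 0.13 in pool 1 of the 4 time points and 0.037 to 0.069 in pools 2 and 3. Across the 47 genes, which are not independent replicates, pool 1 correlated at r = 0.29 to 0.59 with the dye effect. The other pools had r of -0.33 to 0.22. The dye effect is the mean difference of original and swapped arrays in pools 2 and 3, divided by 2. Without pool 1 of each time point 0 of 47 genes were called in any comparison, and the mean over the time points was -0.06 for Grin2c (adjusted p = 0.39 in limma) and -0.07 for Gabrd (adjusted p = 0.397).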

How the data were processed

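Stress and control pools of mouse prefrontal cortex were hybridised on two-colour Agilent 4x44K v2 arrays. The authors deposited scanner tables with mean spot intensity and local background, not normalized, a log10 ratio of red over green, and marks for outlier, saturated and well-above-background spots. The authors' deposited value table holds log2 ratios, positive for stress over control, normalized and centred near 0. Outlier marks covered 0.31% to 0.73% of an array. The number of arrays limits the precision.

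Following the study's methods, limma 3.58.1 was run under R 4.3.3, helped by jsonlite 2.0.0, statmod 1.5.0 and the package data.table at 1.17.8. Intensities were background corrected (normexp, offset 50), normalized by loess and Aquantile, and outlier and control spots were left out. The 43020 spots were averaged to 39429 probes, and each dye-swapped array was sign-turned and averaged with its partner to give 12 pools. A fit with a coefficient per time point (8 residual and 4.86 prior degrees of freedom) was adjusted by Benjamini-Hochberg over all probes. Pools were made of different mice. The SE and p-values rest on a moderated variance per gene, taken from the spread of pools within all 4 time points. An SE beside 3 pools is therefore not the spread of those pools alone. The fit was tested on simulated data. Array positions are of mm9.

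Members, lists and tests were chosen with earlier results of these data known. Named are every called gene, at each time point and in the mean over them the 3 highest and 3 lowest genes with the same sign in all 3 pools (10 of 12 for the mean) and a probe above background, main cortical subunits fixed by name, the gene of each class with the lowest p for a difference among time points, genes above background on no array, and the 2 partners per list with the lowest p. Some genes that this rule names are not reported here. The alternatives were normexp without offset, no background correction other normalizations (loess alone, median centring), the log10 ratio, the value table, a filter for probes above background on 15 of 20 arrays, trended variances, blocks, left-out pools, the pools with a dye swap alone, single time points and the median over probes.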

Additional observations from a re-analysis of the deposited data

Results flagged for a closer look

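For 4 of the 47 receptor genes (8.51%, against 11.6% of all genes) all 3 pools lay on one side of 0 at 1 time point and on the other side at another. Gabre was below control after 13 days and above it after 8 days, a difference of -0.11 (SE 0.0984). Grid1 was below control in recovery and above it after 8 days, a difference of -0.11 (SE 0.0761). Both differences had an adjusted p of 1 in limma.

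Among the named partner genes Slc6a11 differed in the same way. It was above control after 13 days (0.40, 0.19 and 0.17 in pools 1 to 3) and below it after 8 days (-0.29, -0.19 and -0.24), a difference of 0.49 (SE 0.065, adjusted p = 0.172 in limma). In recovery it was 0.29 (SE 0.065, adjusted p = 1) above its value after 8 days. Kctd16 was above control in recovery and below it after 8 and 13 days, with differences of 0.16 (SE 0.0707, adjusted p = 1) and 0.28 (SE 0.0707, adjusted p = 0.96).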

How the results depend on the processing

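The count of called genes was 0 of 47 receptor genes in each comparison, and 0 of 54 partner genes, under every alternative run. A call at a time point or in the mean needs a log2 ratio beyond 0.5. No receptor gene reached that in the main fit, so these counts say little about how the p-values moved. In the mean over the time points the lowest adjusted p of a receptor gene in limma was 0.319 in the main fit and 0.0165 over the alternatives. When single pools were left out, 3 to 11 receptor genes had p under 0.05 after 13 days, and the shares of all probes in those fits are not given here. The pool number goes with the slide, and pool 3 with the second scan day. Deviations of same-numbered pools correlated at -0.12 to 0.51 over all probes, over 0.1 in 12 of 18 pairs, and the labels do not say that a number marks a shared batch. With the pool number as a block 0 of 47 genes were called, and Grin2c and Gabrd had adjusted p of 0.0165 and 0.0392 in the mean over the time points. Without pool 1, which had no dye swap here, and without the block they had 0.39 and 0.397 in limma. After 13 days 12 genes had p under 0.05 with that block, for which the share of all probes is not given here. With slides as blocks on 20 arrays, Grin2c had an adjusted p of 0.019 and Gabrd one of 0.1, so the adjusted p of Gabrd was under 0.05 with the pool block only. In the slide fit arrays of a pool counted nearly as separate replicates (correlation 0.0488), and original arrays outnumbered swaps. For Grin2c the adjusted p ranged from 0.0165 to 0.957 over the alternatives, and for Gabrd from 0.0392 to 0.998. The largest class median in size, 0.206 for GABA-B after 13 days, was 0.108 with the median over a gene's probes. The median r between probes of a gene was 0.92 with median centring, which leaves trends with intensity in the ratios, and 0.27 over single arrays.

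Of 1100 values of named genes under alternatives, 22 changed sign, all of them without a call in limma, and the cause was not tested. Without background correction Gabre and Grid1 after 8 days had -0.055 and -0.02, and with the scanner's log ratio -0.084 and -0.043. With median centring the values after acute stress were 0.011 for Gabra2 and 0.042 for Grin2c, Gria3 had -0.078 after 8 days, and the means over the time points were 0.00021 for Grin1, 0.018 for Grm2 and 0.014 for Grm7. That setting moved the median of all genes to -0.079 after 8 days. Without pool 1 the means over the time points were -0.027 for Gria3, 0.01 for Grik2, -0.073 for Grm3 and -0.0022 for Grm5, and Grm3 had -0.0032 with slide blocks. With the median over probes Grin2a had -0.0015 in recovery and -0.026 in the mean over the time points. Leaving out 1 pool at a time gave means of -0.042 to 0.011 for Grin1 and -0.0014 to 0.063 for Grm5. The first scan day alone (pools 1 and 2), an alternative chosen after seeing the data, reversed none of the named values.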

Other observations

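Slc6a11, which takes up GABA into astrocytes, had a lower p for a difference among time points than any receptor gene. Its log2 ratios were 0.06, -0.02 and 0.09 after acute stress, -0.29, -0.19 and -0.24 after 8 days, 0.40, 0.19 and 0.17 after 13 days, and 0.06, 0.07 and 0.02 in recovery. In the test for a difference among the 4 time points it ranked number 6 of 39429 probes, with an adjusted p of 0.31 in limma. It is read by 1 probe. Its pattern over time was singled out after the values were seen.

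Grid2ip, matched by the naming rule but no subunit, was below control in 11 of 12 pools, with a mean log2 ratio of -0.04 (SE 0.017, adjusted p = 0.666 in limma).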
